A study of Mus musculus with 6 samples.

Results

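The genes of cholesterol and fatty acid synthesis were followed in mouse embryonic stem cells during 24 h of induced nuclear entry of a Snail fusion protein. The set held 30 genes chosen by symbol, 21 of the sterol branch and 9 of the fatty acid branch, and every probe annotated to them was taken. Of these, 27 genes had a named probe and 25 were above background on at least 1 array, out of 9432 such genes in the series. The sterol branch kept 17 genes and the fatty acid branch 8. Acat2, Hmgcs1 and Fdft1 had no probe under their names in the annotation used and were not analysed here. Mvk, the mevalonate kinase gene, and Acaca, the acetyl-CoA carboxylase gene, were below detection on all 6 arrays.

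The cells were of the E14 line and carried Snail-ER, in which the repressor Snail (Snai1) is joined to an estrogen receptor domain that responds to 4-hydroxytamoxifen (4-OHT). They grew with serum and with LIF, a cytokine that holds mouse stem cells undifferentiated. All 6 arrays came from Snail-ER cells, 1 each at 0, 2, 4, 8, 12 and 24 h of 4-OHT, and polyA RNA was hybridised to Illumina bead arrays. The labels used here name neither the promoter that drives the fusion nor whether the line is 1 clone. Cells without the fusion, or kept for the same hours without 4-OHT, were not analysed here, so the fusion, the drug and time in culture cannot be told apart.

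Cholesterol is built from acetyl-CoA through mevalonate, isoprenoid diphosphates, squalene and lanosterol, and fatty acids are built from acetyl-CoA through malonyl-CoA. Both branches draw on cytosolic acetyl-CoA. Transcription of most of these enzymes is controlled by the SREBP factors, which the endoplasmic reticulum holds back through INSIG proteins when sterols are plentiful. SREBP-2, from Srebf2, acts mainly on sterol genes, and SREBP-1c, from Srebf1, mainly on fatty acid genes. Dividing stem cells need both products for new membranes.

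Values are the authors' normalized intensities on a linear scale. Differences and folds are on the scale of log2(intensity + 16), which understates changes of dim genes. With 1 array per time, a difference from 0 h has no replicate error. A straight line against log2(hours + 1) was fitted to the 6 arrays with limma, leaving 4 residual degrees of freedom, and p-values were adjusted by Benjamini-Hochberg over all 9432 genes. These p-values rest on how single arrays scatter around the line, and part of that scatter may be technical. A fitted change is the line's rise or drop between 0 and 24 h. Detection was uneven. The background SD, estimated from the non-normalized intensities, was 14.7 to 16.1 units on the 0, 2 and 8 h arrays and 4.72 to 8.72 on the others. All 8 embryonic stem cell markers examined were detected on all arrays, and Nanog, Zfp42 and Esrrb among them fell (limma adjusted p = 0.0081, 0.0030 and 0.0074). The other 5 did not pass, with fitted changes of 0.49 for Pou5f1, 0.74 for Lin28a, 0.42 for Sox2, -0.40 for Tdgf1 and -0.33 for Dppa5a. With every probe fitted, a second probe of Pou5f1 (0.56, limma adjusted p = 0.036) and 2 further probes of Lin28a (1.19 and 0.80, adjusted p = 0.012 and 0.039) rose. Another Lin28a probe (-0.38, limma adjusted p = 0.52) and a second Sox2 probe (-0.31, limma adjusted p = 0.32) sloped down without passing. The slope of Sox2 thus depends on the probe. None of 5 adipocyte and liver markers was detected on any array. Of 7 fibroblast feeder markers, Thy1 and Dcn were detected on at least 1 array and neither passed, and the 5 others were at or near background. Thy1 sloped down (-0.87 ± 0.31, limma adjusted p = 0.089). Dcn sloped up (1.65 ± 0.59, limma adjusted p = 0.090) on a probe detected at 12 and 24 h alone, and its other probes were not detected. Of 6 primitive endoderm markers, Dab2 and Sox7 were detected, and Gata4, Gata6, Sox17 and Pdgfra were not. The Dab2 probe in the fit went from 46.1 at 0 h to 84.8 at 24 h without passing (0.75 ± 0.23, limma adjusted p = 0.056), and a second Dab2 probe rose from 32.3 to 80.3 (limma adjusted p = 0.015 with every probe fitted). Neither Dab2 probe was detected at 0 or 2 h, where the background was wide. The part of such cells in the results below was not tested.

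Most of the sterol branch stayed within a narrow range, and the fatty acid desaturase genes held the largest changes. Of 17 sterol genes, 1 fell (Ebp) and 0 rose. Of 8 fatty acid genes, 2 fell (Scd1 and Scd2) and 0 rose. Among all genes tested, 6.19% fell, 6.24% rose and 12.4% were called in either direction by the same limma rule. The 3 calls among 25 genes are close in share to the 12.4% called in either direction. All 3 were falls, and their share is above the 6.19% that fell. With so few genes, the counts do not set these genes apart from the rest.

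**Figure D1:**
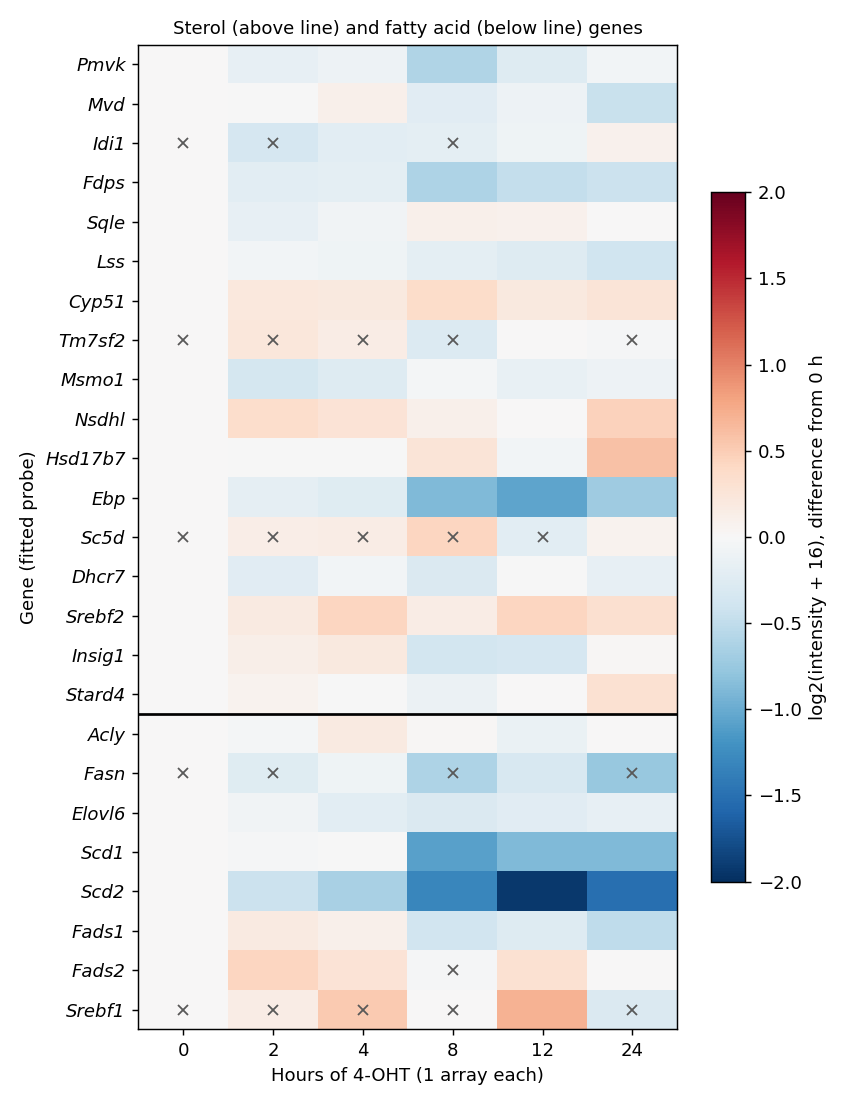
Log2 difference from the 0 h array for the fitted probe of each of 25 genes (rows) on the 6 arrays (columns, hours of 4-OHT), red higher and blue lower. Crosses mark arrays on which the probe was not detected. The darkest cells are those of Scd2, at -1.93 at 12 h, and most sterol rows stay pale.

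**Figure D2:**
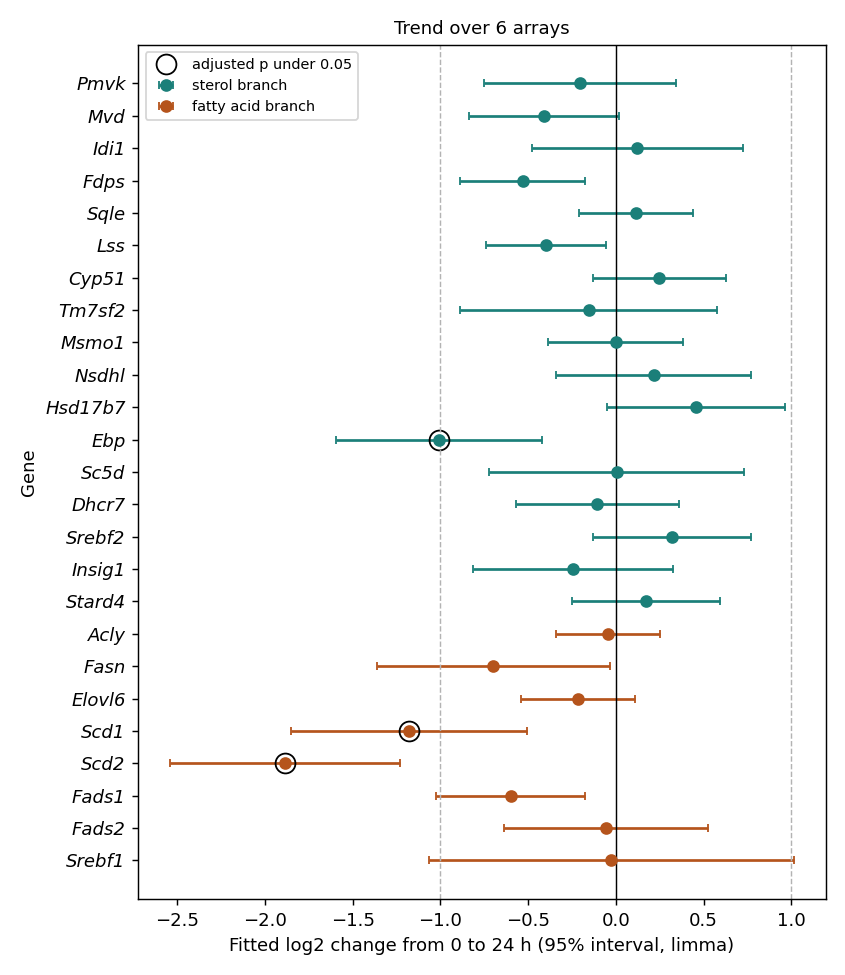
Fitted log2 change from 0 to 24 h with its 95% interval (horizontal bars) for 17 sterol and 8 fatty acid genes. Rings mark the genes past the limma test, Ebp, Scd1 and Scd2, and dashed lines mark a 2-fold change either way.

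Scd2 changed the most. It encodes a stearoyl-CoA desaturase, which puts a double bond into saturated fatty acids, and is the form known from mouse brain and embryo. In order of time (0, 2, 4, 8, 12 and 24 h) its normalized intensity was 473, 346, 296, 181, 112 and 155. Each array up to 12 h was below the one before it, and the 24 h array lay above the 12 h array but below that of 8 h. Against the start, Scd2 was 1.35-fold lower by 2 h, 2.48-fold lower by 8 h, 3.81-fold lower by 12 h and 2.86-fold lower on the last array. The fitted change was -1.89 ± 0.30 (SE; limma adjusted p = 0.0052), the 195th largest in size among the 9432 genes. The call held when any 1 array was left out (limma adjusted p from 0.0036 to 0.045). It was lost with each array's background SD as a covariate (-1.82 ± 0.46, limma adjusted p = 0.056).

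Scd1, the desaturase gene best known from liver and fat, had another course. Its normalized intensities in order of time were 621, 608, 621, 283, 329 and 331. The first 3 arrays lay between 608 and 621 and the last 3 between 283 and 331, with nothing between. Scd1 was 2.13-fold lower at 8 h than at 4 h, a step of at least 2-fold that 3.2% of genes compared between these arrays made downward. The fitted change was -1.18 ± 0.31 (SE; limma adjusted p = 0.032). The call was lost without the 0, 2, 12 or 24 h array (limma adjusted p = 0.080, 0.078, 0.093 and 0.076) and held with the background SD as a covariate (adjusted p = 0.040). Whether the courses of Scd1 and Scd2 differ was not tested.

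The other desaturases, which act on polyunsaturated fatty acids, did not pass. Fads1, the delta-5 desaturase gene, had normalized intensities of 2133, 2416, 2281, 1636, 1788 and 1501 in order of time. As with Scd1, its first 3 values lay above its last 3. Its fitted change was -0.60 ± 0.19 (limma adjusted p = 0.064), and it passed with ranked times (adjusted p = 0.033) and without the 0 h array (adjusted p = 0.034). A dimmer Fads1 probe, detected at 4, 12 and 24 h, had 39.99, 22.5 and 23.9 there. Fads2, the delta-6 desaturase gene, was highest at 2 h on both of its probes, at 90.4 and 122. The fitted probe was not detected at 8 h, and its line was nearly flat (-0.05 ± 0.26, limma adjusted p = 0.91). The other probe, detected on all arrays, went from 70.9 at 0 h to 47.1 at 24 h. It did not pass either (-0.63 ± 0.33, limma adjusted p = 0.22 with every probe fitted).

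The genes that make the saturated chain were steadier or dim. Acly, which encodes ATP citrate lyase and so supplies cytosolic acetyl-CoA, had normalized intensities of 5226, 5083, 5916, 5313, 4790 and 5226 in order of time. The 0 and 24 h arrays thus gave Acly the same value, and its fitted change was -0.05 ± 0.13 (limma adjusted p = 0.85). Elovl6, an elongase gene, ranged from 801 at 8 h to 981 at 0 h, with every later array below the first (-0.22 ± 0.15, limma adjusted p = 0.35). Fasn, the fatty acid synthase gene, was detected at 4 and 12 h alone, at 37.97 and 29.9, and no fold from 0 h is given. Its fitted change of -0.70 ± 0.30 did not pass (limma adjusted p = 0.15). Srebf1 was detected at 12 h alone, at 19.7, so its course was not measurable here.

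**Figure D3:**
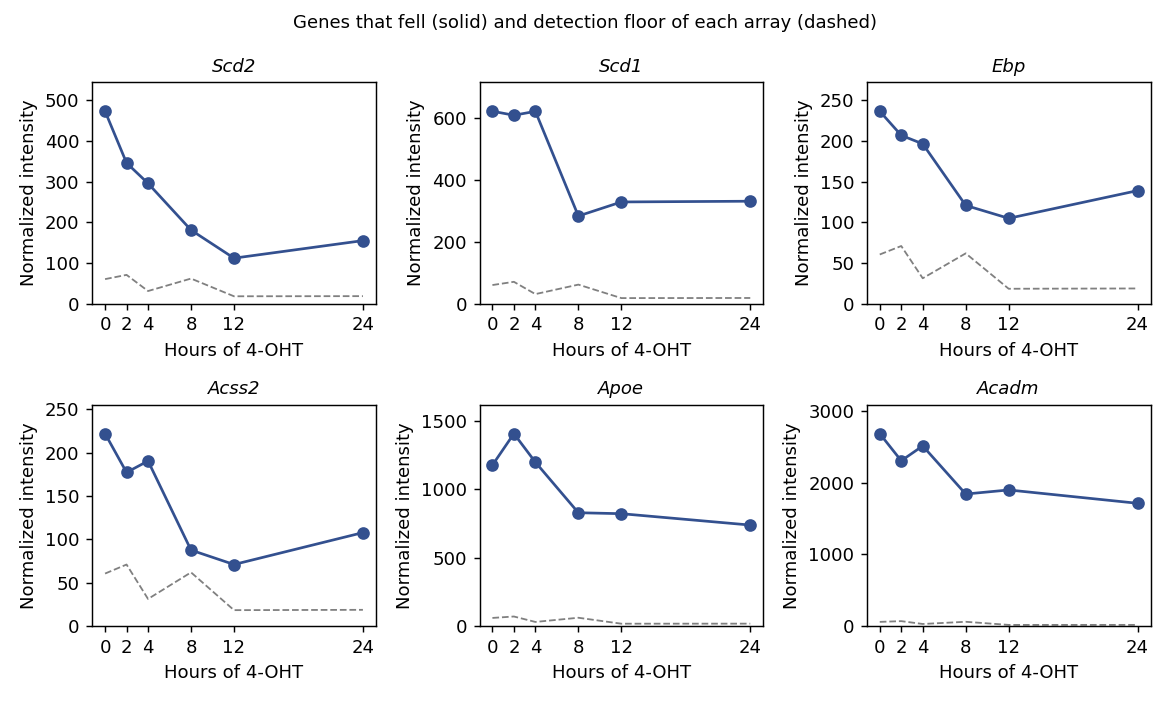
Normalized intensity (linear scale) against hours of 4-OHT for the 3 genes of the set that fell, Scd2, Scd1 and Ebp, and for 3 genes of neighbouring lipid lists that fell, Acss2, Apoe and Acadm, with 1 array per point. The dashed line is the detection floor of each array, its dimmest detected signal, and every point lies above it.

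Ebp was the sterol gene that fell. It encodes the sterol isomerase of a late step to cholesterol, and the protein is also known to bind tamoxifen and related antiestrogens. Its normalized intensities in order of time were 237, 207, 197, 121, 105 and 139. All later arrays were below the first, the lowest was that of 12 h, and the 24 h array lay between those of 4 and 8 h. Against the start, Ebp was 1.85-fold lower by 8 h, 2.09-fold lower by 12 h and 1.63-fold lower on the last array. The line fitted to it dropped by 1.01 ± 0.27 (SE; limma adjusted p = 0.033). The call was lost without the 0, 2 or 12 h array (limma adjusted p = 0.15, 0.079 and 0.091) and with the background SD as a covariate (adjusted p = 0.12).

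The promoter of Ebp is shown beside those of 2 sterol genes that did not pass, Cyp51 and Lss, and that of Acss2, a gene outside the set that fell. The windows run from 250 bases before to 50 bases after the annotated start and come from RefSeq on GRCm38.p6, written 5′ to 3′ on the gene's strand. Capitals mark CCAAT, the motif of the factor NF-Y, and CAGGTG, the E-box that Snail is known to bind, on either strand, so they can read ATTGG or CACCTG. Ebp lies at chrX:8193463-8193762 (minus strand), Cyp51 at chr5:4104648-4104947 (minus strand), Lss at chr10:76531355-76531654 (plus strand) and Acss2 at chr2:155517793-155518092 (plus strand).
Ebp: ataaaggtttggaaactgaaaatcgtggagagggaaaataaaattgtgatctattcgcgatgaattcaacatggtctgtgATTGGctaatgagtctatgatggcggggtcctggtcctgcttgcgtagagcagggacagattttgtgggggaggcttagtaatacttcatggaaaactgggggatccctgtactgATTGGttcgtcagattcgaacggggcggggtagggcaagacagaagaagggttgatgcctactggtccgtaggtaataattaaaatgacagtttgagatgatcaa
Cyp51: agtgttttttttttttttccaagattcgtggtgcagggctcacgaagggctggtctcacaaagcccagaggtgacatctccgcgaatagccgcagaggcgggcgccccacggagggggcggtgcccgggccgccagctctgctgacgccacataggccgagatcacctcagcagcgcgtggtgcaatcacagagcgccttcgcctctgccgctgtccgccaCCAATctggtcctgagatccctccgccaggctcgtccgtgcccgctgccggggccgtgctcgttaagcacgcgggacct
Lss: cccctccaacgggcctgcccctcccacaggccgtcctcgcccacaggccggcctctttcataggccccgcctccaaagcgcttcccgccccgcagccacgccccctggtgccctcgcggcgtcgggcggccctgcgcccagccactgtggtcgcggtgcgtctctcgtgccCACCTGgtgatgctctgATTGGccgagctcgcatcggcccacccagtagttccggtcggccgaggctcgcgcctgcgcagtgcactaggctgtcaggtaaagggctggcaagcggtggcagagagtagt
Acss2: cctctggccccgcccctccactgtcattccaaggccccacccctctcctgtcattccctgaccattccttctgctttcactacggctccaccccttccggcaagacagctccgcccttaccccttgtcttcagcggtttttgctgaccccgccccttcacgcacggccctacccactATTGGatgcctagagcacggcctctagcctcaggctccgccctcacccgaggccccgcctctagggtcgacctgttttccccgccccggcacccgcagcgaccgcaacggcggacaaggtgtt

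Ebp held 2 CCAAT matches, and Cyp51 and Acss2 held 1 each. Lss held 1 CCAAT match and, closely upstream of it, 1 CAGGTG match. RefSeq windows were found for 23 of the 30 genes, 28 windows in all, and none for Scd1 or Scd2. CCAAT stood in 16 of 20 windows of sterol genes (80.0%) and in 4 of 8 windows of fatty acid genes (50%), against 37.4% of all 32851 windows. By gene, 16 of 17 sterol genes had at least 1 CCAAT match, the exception being Acat2, as did 3 of 6 fatty acid genes and 41.1% of all 27025 genes. CAGGTG stood in 5 of 20 sterol windows (25.0%) and 2 of 8 fatty acid windows (25.0%), against 20.2% of all windows. TCACNCCAC, 1 form of the sterol regulatory element, stood in the Hmgcs1 window alone among them, against 1.24% of all windows. Both strands were searched, and different motifs did not overlap in the windows of these genes. A match is a description of letters in these windows and was not tested against expression.

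Among the genes of the mevalonate steps, 4 were fitted and none passed. Fdps, which encodes farnesyl diphosphate synthase, had normalized intensities of 2224, 1912, 1932, 1446, 1589 and 1640 in order of time. All later arrays were below 0 h, the lowest being that of 8 h, 1.53-fold lower. Its fitted change of -0.53 ± 0.16 lay just outside the threshold (limma adjusted p = 0.054). A dimmer Fdps probe went the other way, with 48.0, 63.25 and 98.9 on the arrays of 4, 12 and 24 h where it was detected, so the direction of Fdps depends on the probe. Pmvk, the phosphomevalonate kinase gene, was lowest at 8 h, at 111, and stood at 177 on the first array and 170 on the last (-0.20 ± 0.25, adjusted p = 0.62). Mvd, the gene of the decarboxylase that follows, ranged from 221 at 24 h to 331 at 4 h (-0.41 ± 0.19, adjusted p = 0.18). Idi1, the isopentenyl diphosphate isomerase gene, was detected at 4, 12 and 24 h, at 37.96, 43.25 and 50.6 (0.12 ± 0.27, adjusted p = 0.80).

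Between squalene and cholesterol, 10 genes were fitted and Ebp alone passed. Sqle encodes squalene epoxidase, a rate-controlling enzyme. Its normalized intensities in order of time were 1416, 1267, 1353, 1522, 1504 and 1417 (0.11 ± 0.15, limma adjusted p = 0.64). The first and last arrays were thus nearly equal, and a dimmer Sqle probe ran from 212 on the first array to 312 on the last without passing (fitted change 0.40, adjusted p = 0.18 with every probe fitted). Lss, the lanosterol synthase gene, had 436, 419, 412, 377, 362 and 327 in order of time, lower on each array than on the one before. The whole span for Lss was 1.32-fold, and its fitted change of -0.40 ± 0.16 did not pass (limma adjusted p = 0.12). Cyp51, which encodes lanosterol demethylase, stood at 251 at the start and between 290.5 and 330 on all later arrays (0.25 ± 0.17, adjusted p = 0.36).

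Msmo1, a sterol methyl oxidase gene, was highest at 0 h, at 1104, and lowest at 2 h, at 863 (-0.0014 ± 0.17, adjusted p = 0.997). Hsd17b7, a ketosteroid reductase gene of the demethylation steps, ranged from 224 at 12 h to 358 at 24 h. It lay between 231 and 232 on the first 3 arrays and was 1.51-fold higher at 24 h than at 0 h, without passing (0.46 ± 0.23, adjusted p = 0.21). Nsdhl, the dehydrogenase gene of the same steps, ranged from 66.3 at 0 h to 97.9 at 24 h (0.22 ± 0.25, adjusted p = 0.60). All 4 Nsdhl probes had their highest value on the 24 h array. Dhcr7, which encodes the reductase of the last step, ranged from 91.4 to 115 (-0.11 ± 0.21, adjusted p = 0.77). The Dhcr7 protein is known to form the antiestrogen binding site together with that of Ebp. Tm7sf2, a sterol reductase gene, was detected at 12 h alone, and Sc5d, a sterol desaturase gene, at 24 h alone.

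The regulators of the sterol branch did not pass either. Srebf2 had normalized intensities of 147, 169, 204, 163, 203 and 186 in order of time, with every later array above 0 h (0.32 ± 0.20, limma adjusted p = 0.31). A second Srebf2 probe ranged from 154 to 179. Insig1, itself a well-known SREBP target, had 145, 158, 168, 108, 112 and 147 in order of time. It was 1.30-fold below the start at 8 h and near its first value on the last array (-0.24 ± 0.26, adjusted p = 0.56). A dimmer Insig1 probe, not detected at 0 h, had 85.2, 71.9, 62.4, 54.0 and 50.9 on the later arrays, with no return at 24 h. Another, detected at 4, 12 and 24 h, had 60.9, 37.7 and 56.5 there. The late course of Insig1 thus depends on the probe. Stard4, the gene of a sterol transfer protein, ranged from 258 at 8 h to 352 at 24 h (0.17 ± 0.19, adjusted p = 0.58).

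The 95% interval of the fitted change lay within 2-fold either way for 16 of the 17 sterol genes, the exception being Ebp, and for 3 of the 8 fatty acid genes. Among all genes tested this held for 60.5%. Over genes detected on all arrays it held for 13 of 14 sterol genes, 2 of 5 fatty acid genes and 79.6% of 5917 genes. For Tm7sf2, Sc5d and Idi1, which lay near background on most arrays, the added 16 narrows the interval, and it bounds no change of theirs.

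The branches were compared by their medians, as a description. The sterol median differed from 0 h by -0.01, -0.01, -0.20, -0.08 and 0.00 on the log2 scale at 2, 4, 8, 12 and 24 h. The fatty acid median differed by -0.03, 0.05, -0.33, -0.24 and -0.39, and that of all genes by 0.01, 0.05, 0.04, 0.08 and 0.05. Both medians lay below that of all genes from 8 h on, and the sterol median was back at its 0 h level at 24 h while the fatty acid median was not. Over genes detected on all arrays, the 24 h medians were -0.03 for 14 sterol genes, -0.50 for 5 fatty acid genes and 0.00 for 5917 genes in all. Without Scd1 and Scd2, left out after their values were seen, the fatty acid median at 24 h was -0.22. This value and the -0.39 of all fitted fatty acid genes both count Fasn and Srebf1, which were detected at neither 0 nor 24 h. Both medians thus rest in part on signal near background. The median of the fitted changes was -0.00 for the sterol branch, -0.41 for the fatty acid branch and 0.06 for all genes. No test between branches was made, since genes of 1 array are not replicates.

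**Figure D4:**
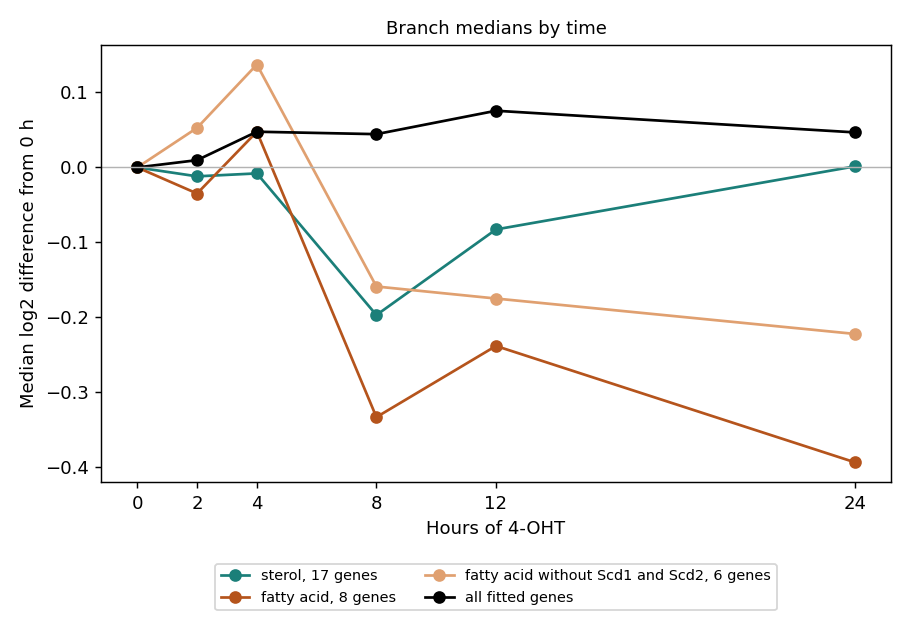
Median log2 difference from the 0 h array against hours of 4-OHT for the sterol branch (17 genes), the fatty acid branch (8 genes), the fatty acid branch without Scd1 and Scd2 (6 genes) and all 9432 fitted genes. The lines part at 8 h, and at 24 h the sterol median lies at 0.00 and the fatty acid median at -0.39.

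The step from 4 to 8 h was shared by much of the set. All 8 fatty acid genes were lower at 8 h than at 4 h on their fitted probes, as were 11 of 17 sterol genes, against 50.9% of all genes. Among the 8, Fasn, Srebf1 and the fitted Fads2 probe were not detected at 8 h. The Fads2 probe detected on all arrays was not lower, with 60.6 at 4 h and 63.4 at 8 h. Over genes detected on all arrays the counts were 5 of 5 and 10 of 14, against 49.9%. The largest of these steps were those of Scd1, of Scd2 at 1.58-fold, of Ebp at 1.55-fold and of Insig1 at 1.48-fold. The 8 h array had a wider background than the 4 h array, with a background SD of 15.99 against 8.72, and its part in this step was not tested. At 8 h, Scd1 and Scd2 were at least 2-fold below 0 h, as were 4.84% of genes compared. At 12 h these were Scd2 and Ebp, against 4.31%, and at 24 h Scd2, against 4.21%. At 2 and 4 h no gene of the set had moved that far down, against 0.944% and 1.22%. None was at least 2-fold above 0 h at any time, against 0.465%, 0.214%, 2.45%, 4.36% and 4.2% of genes compared at 2, 4, 8, 12 and 24 h.

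A bend in the course was looked for with a quadratic term of log2(hours + 1) in a second limma fit, with 3 residual degrees of freedom. It called 0 of 9432 genes (0% of those tested), with 618 genes at an unadjusted p under 0.05 (6.55%) and 0 of the 25 genes of the set among them. A fit that called no gene cannot decide whether these genes bend. With 1 array per time, the partial return of Scd2 and Ebp at 24 h rests on single arrays. So does the return of the fitted Insig1 probe, which not every Insig1 probe showed.

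Neighbouring lipid genes gave few calls, against the same 6.19% that fell and 6.24% that rose. Of 6 fitted genes of other sterol synthesis steps and of 8 genes of sterol sensing and uptake, none passed. Scap, the escort of SREBP, was at 0.34 ± 0.31 (limma adjusted p = 0.49). Of 2 genes of oxysterol response and storage, Apoe fell, which encodes apolipoprotein E, a protein of particles that carry cholesterol. Its intensity was 1176, 1406, 1198, 829, 822 and 739 in order of time (-0.85 ± 0.23, limma adjusted p = 0.033). Every Apoe value from 8 h on lay below every earlier one, and the call was lost without the 2, 12 or 24 h array (limma adjusted p = 0.068, 0.095 and 0.13).

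Of 14 genes of other fatty acid synthesis steps, Acss2 fell, which encodes the enzyme that makes acetyl-CoA from acetate. Its intensity was 222, 177, 190, 87.7, 71.1 and 108 in order of time, with the 12 h array 2.73-fold below 0 h (-1.36 ± 0.35, limma adjusted p = 0.031). Like Ebp and Scd2, Acss2 was lowest at 12 h. The call was lost without the 0, 2 or 12 h array (limma adjusted p = 0.14, 0.072 and 0.082). Of 8 genes of fatty acid oxidation, the opposite pathway, Acadm fell, which encodes the medium-chain acyl-CoA dehydrogenase. Its intensity was 2681, 2303, 2510, 1840, 1897 and 1711 in order of time (-0.68 ± 0.15, limma adjusted p = 0.017). The Acadm call was lost without the 0, 12 or 24 h array (limma adjusted p = 0.080, 0.055 and 0.069). Over all 18 alternatives, left-out arrays included, the calls of Apoe and Acss2 were each lost in 7 and that of Acadm in 6. None of these neighbouring lists had a gene that rose in the main fit. With every probe fitted, a dimmer probe of Cpt2, a fatty acid oxidation gene, rose (0.70, limma adjusted p = 0.030). The other Cpt2 probes sloped up without passing (0.45 and 0.49, limma adjusted p = 0.11 and 0.081).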

How the data were processed

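PolyA RNA of 6 samples was measured on Illumina arrays, 1 at each time, grouped by sample title. The authors deposited a table of normalized probe intensity on a linear scale (45281 probes) and a table of non-normalized intensity with detection p-values (32765 probes, 72.4%), per the file headers. The submitters' processing notes name GenomeStudio, and no version or step was given in the sources used here. The normalized table looks background-subtracted and quantile normalized, since it holds values below 0 and its minimum and maximum were the same on all arrays. A detected probe had a deposited detection p-value under 0.01 or, where none was held, reached the lowest normalized signal of such a probe on that array.

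Negative intensities were set to 0, 16 was added and log2 taken. The platform annotation gave 1 gene symbol to 34885 probes, several to 18 and none to 10378. Through Entrez identifiers 34807 probes were matched to RefSeq (GRCm38.p6). Genes detected on at least 1 array were kept, each by its brightest probe over all arrays. Trends were fitted with limma 3.58.1 (lmFit, eBayes with an intensity trend) in R 4.3.3, 2-sided, at an adjusted p of 0.05, and were tested on simulated data. There, 58% of simulated log2 changes of 1 and 83% of changes of 2 were recovered, with 7 false calls among 9432 genes. A gene that did not pass may therefore still have changed. The number of arrays limits the precision. All 30 genes are named, and from each further list Scap and up to 4 called genes with the largest fitted change. The genes and lists were chosen with earlier results of these data known. Alternatives changed the pseudocount, filter, time scale, scaling, covariate, table, probe choice, prior and arrays used.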

Additional observations from a re-analysis of the deposited data

How the results depend on the processing

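Of 18 alternatives, none raised the count of sterol or fatty acid genes that rose above 0. The sterol count that fell, 1 as reported, was 0 with no filter on dim probes, with untransformed hours, with the background SD as a covariate and with eBayes without an intensity trend, and 2 among genes detected on all 6 arrays, where Fdps joined Ebp (adjusted p = 0.049). It ran from 0 to 1 with an array left out. The fatty acid count that fell, 2 as reported, was 0 with no filter and with untransformed hours, 1 with the background SD as a covariate and with eBayes without an intensity trend, and 3 with ranked times, where Fads1 joined. It was 1 to 2 with an array left out: 1 without 2, 12 or 24 h, and 2 without 0 h, where Scd1 was lost (adjusted p = 0.080) and Fads1 gained (0.034). It was 0 in both forms of the non-normalized table, which does not hold Scd1 or Scd2.

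Over all genes, 589 rose and 584 fell. These counts were 0 and 0 with no filter, 18 and 11 with untransformed hours, and 141 and 251 with the background SD as a covariate. Without an intensity trend 359 fell. The count that rose was 354 among genes detected on all arrays, 375 and 372 in the non-normalized table with and without background correction, and 897 with every kept probe fitted, where fewer or more features were tested. With an array left out, 194 to 563 rose and 228 to 660 fell: 224 and 228 without 0 h, 286 and 315 without 2 h, 194 and 240 without 12 h, and 312 and 348 without 24 h. The cause of the other shifts was not tested. The curvature count stayed 0 in all 15 alternatives run. The fatty acid median at 24 h was -0.61 with a pseudocount of 4, and -0.17 and -0.16 in the non-normalized table over 5 genes.

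Signs turned for 10 genes, none of them called. Msmo1 was 0.069 with untransformed hours, 0.041 with ranked times, 0.0091 with centred arrays and 0.085 with the covariate. Sc5d was -0.0048 with a pseudocount of 4, -0.076 with untransformed hours and -0.052 with ranked times. Srebf1 was 0.0085 with a pseudocount of 64, and with the covariate Idi1 was -0.052 and Stard4 -0.0046. With an array left out, fitted changes ran from -0.12 to 0.018 for Acly, -0.18 to 0.066 for Dhcr7, -0.54 to 0.13 for Fads2, -0.093 to 0.61 for Idi1, -0.091 to 0.38 for Msmo1, -0.024 to 0.35 for Nsdhl, -0.52 to 0.012 for Pmvk, -0.23 to 0.16 for Sc5d, -0.52 to 0.60 for Srebf1 and -0.080 to 0.31 for Stard4. Without the 24 h array these values are extrapolated to 24 h. Scd2, Scd1 and Ebp kept their sign throughout. No paired analysis was possible because each time has 1 array and the labels carry no replicate numbers. Signal over background limits the dim genes Fasn, Idi1, Tm7sf2, Sc5d and Srebf1.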
